A study of Mus musculus with 6 samples.

Results

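The 78 protein-coding mouse genes whose symbols begin with Mrpl or Mrps and a digit were examined among the 54532 genes of the series, 21995 of them protein-coding. They were picked out by symbol and gene type, and this set was chosen with earlier results of these data known. By symbol, 49 belong to the large subunit of the mitochondrial ribosome (Mrpl) and 29 to the small subunit (Mrps). A further 5 pseudogenes with such symbols were left out. RNA had been sequenced from bone marrow LSK cells, a gate of cells without lineage markers and with Sca-1 and c-Kit, enriched for blood stem cells and multipotent progenitors. The mutant group was 3 libraries of genotype Vav1-Cre; Phf6fl-R274X/Y, called Vav1-Cre here, and their controls were 3 libraries of genotype Phf6fl-R274X/Y without Cre, called floxed here. All 6 carried the floxed Phf6 allele with the R274X change, a stop codon in an X-linked chromatin protein gene, on the single X chromosome of a male. The Vav1 promoter drives Cre in blood cells from the stem cell onward, so every blood lineage of a Cre mouse can carry the recombined allele. Age and any pooling of animals are not given in the labels.

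Mitochondria have their own ribosome, which translates the few proteins encoded by mitochondrial DNA, all of them subunits of the respiratory chain and ATP synthase. Its ribosomal RNAs come from mitochondrial DNA, but every one of its proteins is encoded in the nucleus, translated in the cytosol and imported. Some of these proteins have bacterial relatives, others are particular to mitochondria, and a few hold roles outside the ribosome. Blood stem cells are known for keeping mitochondrial activity low, and their exit from quiescence for raising it.

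Total counts were 16896472, 16070348 and 15406314 in the Vav1-Cre libraries, against 18106065, 17200917 and 17697834 in the floxed libraries. Levels are given as CPM, counts relative to library size after TMM scaling, which sets the bulk of genes level between libraries. Genes are called higher or lower where the adjusted p of edgeR's test was under 0.05. Phf6 itself had 8.47, 10.3 and 8.29 CPM in Vav1-Cre libraries, against 31.8, 29.6 and 33.5 CPM in floxed libraries, a log2 fold change of −1.81 ± 0.12 (SE, adjusted p = 6.67e-06). Libraries of the 2 genotypes also differed in RNA of other cell types. Immunoglobulin genes took 6.85%, 7.95% and 4.45% of counts in Vav1-Cre libraries, against 0.649%, 0.293% and 1.18% in floxed libraries (two-sided exact permutation p = 0.1, the smallest that 3 against 3 allow). The summed level of 10 macrophage and monocyte markers was 1252 to 2632 CPM in Vav1-Cre libraries and 281 to 574 CPM in floxed libraries, and 6 of the 10 were called higher. Likewise called higher were 6 of 10 B cell, 5 of 8 plasma cell, 3 of 9 erythroid and 7 of 8 T and NK cell markers and 0 of 8 neutrophil markers. The remaining T and NK cell marker, Nkg7, was called lower, and the summed level of the 8 was 123 to 152 CPM in Vav1-Cre and 166 to 185 CPM in floxed libraries. Neutrophil markers had the largest sums of these lists, 20654, 13639 and 35963 CPM in Vav1-Cre libraries. In floxed libraries they summed to 30231, 22788 and 17985 CPM, so that the groups overlapped and libraries varied widely within a genotype. Of 11 stem cell markers 8 were called lower in Vav1-Cre and 1 higher, with sums of 953 to 1090 CPM in Vav1-Cre libraries and 1321 to 1418 CPM in floxed libraries. All 11 were detected, as the LSK label calls for. In bulk RNA, fewer cells of a type and less RNA per cell cannot be told apart, and the part of these other cells in the results that follow was not tested unless a value is given.

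Mitochondrial ribosomal protein genes were modestly higher in Vav1-Cre libraries, and none was called lower. Of the 77 members that passed the count filter, 21 were higher at an adjusted p under 0.05 and 56 did not pass, with 0 lower. That is 27.3% of tested members higher, beside a background of 10.1% higher and 7.89% lower among all 14608 tested genes. No member was lower at an unadjusted p under 0.05 in edgeR, and DESeq2 also called 0 lower. The members' median log2 fold change was 0.21, a 1.16-fold higher level, where the median of all tested genes was −0.02. Single members ran from −0.17 (Mrpl24) to 0.53 (Mrps21), so that no member changed by as much as 2-fold. The log2 fold change was above 0 for 70 members and below 0 for 7. All Vav1-Cre libraries lay above all floxed libraries for 43 of the 77 members, and for 18.9% of all tested genes. The reverse held for 0 members and for 18.3% of all tested genes. The groups overlapped for the other 34 members.

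**Figure D1:**
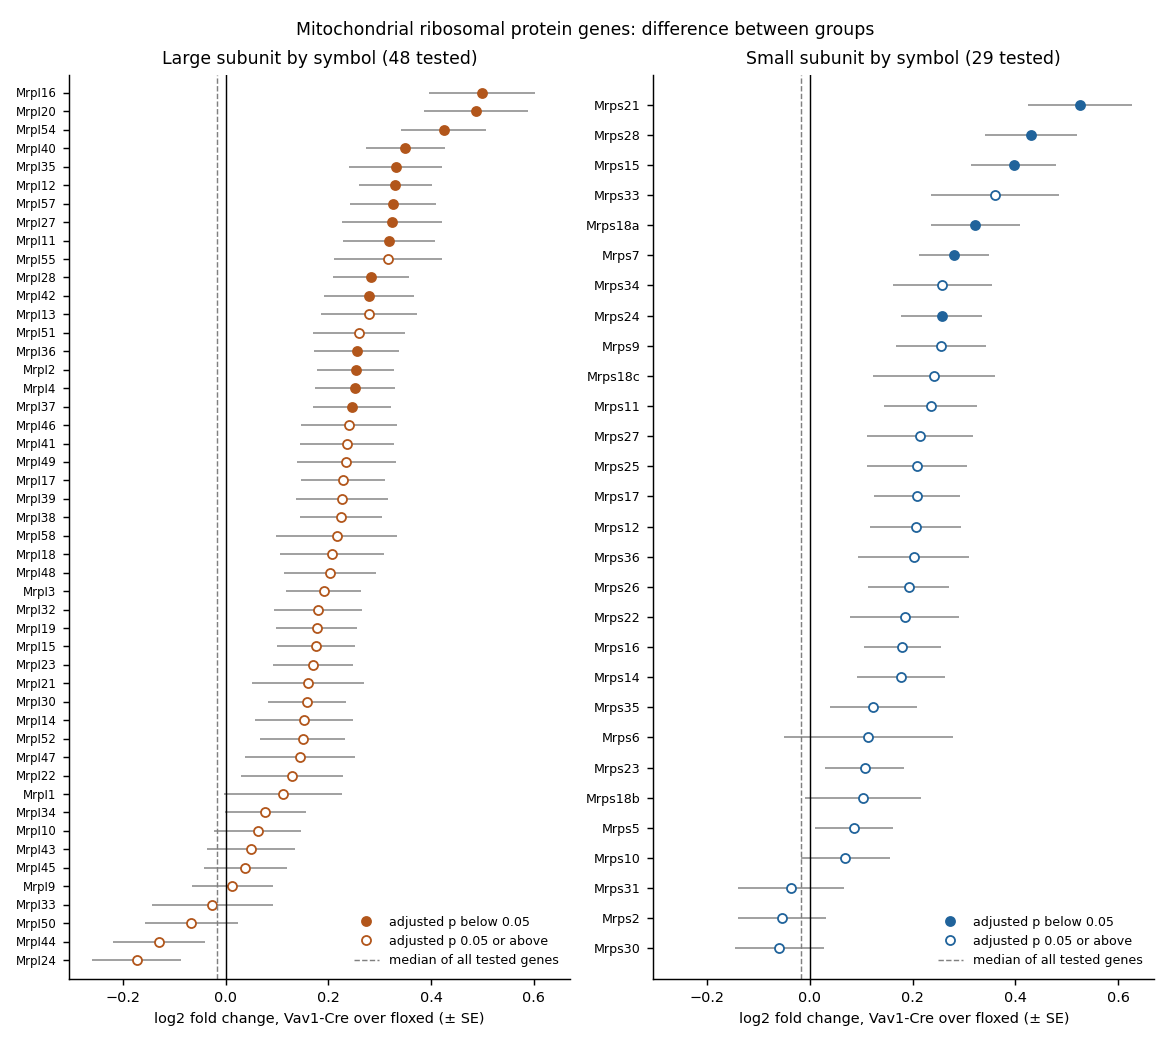
Log2 fold change of each tested member, Vav1-Cre over floxed, with its standard error on the x axis and genes down the y axis, for 48 Mrpl genes (left panel) and 29 Mrps genes (right panel). Filled points passed an adjusted p of 0.05 and all 21 of them lie right of 0; the dashed line marks the median of all tested genes at −0.02.

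The summed level of the members was 5350, 4922 and 4789 CPM in Vav1-Cre libraries, against 4436, 4209 and 4429 CPM in floxed libraries. The groups did not overlap, and the ratio of their means was 1.15. As a share of all counts, with no scaling factor, the same genes took 0.490%, 0.463% and 0.465% in Vav1-Cre libraries, against 0.463%, 0.457% and 0.465% in floxed libraries. These shares overlap, with a ratio of 1.02. Scaling by library totals alone, an alternative chosen after seeing the data, moved the median log2 fold change of all genes to −0.19, and that of the members to 0.04. Relative to all genes the members then stood 0.22 higher, against 0.23 with TMM scaling, and 6 of them were called higher and 2 lower. Levels of members are therefore described relative to the bulk of tested genes.

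Libraries differed within a genotype as well. The members' median deviation from each gene's mean over the 6 libraries was 0.20, 0.08 and 0.03 on the log2 scale in Vav1-Cre libraries, against −0.08, −0.15 and −0.07 in floxed libraries. Vav1-Cre 1 held the highest value for 56 of the 77 members, and floxed 2 the lowest for 37. The number of members called higher was 9 without Vav1-Cre 1, 8 without Vav1-Cre 2 and 31 without Vav1-Cre 3. It was 11 without floxed 1, 7 without floxed 2 and 12 without floxed 3. A positive log2 fold change in all 6 of these fits was found for 67 members. Vav1-Cre 1 also had the highest macrophage and monocyte sum (2632 CPM), and floxed 2 the lowest macrophage sum (281 CPM) and immunoglobulin share (0.293%). The highest immunoglobulin share (7.95%) was instead that of Vav1-Cre 2, where the members' median deviation was 0.08. With the immunoglobulin share as a covariate, 0 members were called and their median log2 fold change was 0.05. Across all genes that fit called 68 higher and 7 lower, and since the share separates the genotypes completely, its part and that of the genotype cannot be told apart. Leaving out the immunoglobulin genes instead left 23 members called higher.

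**Figure D2:**
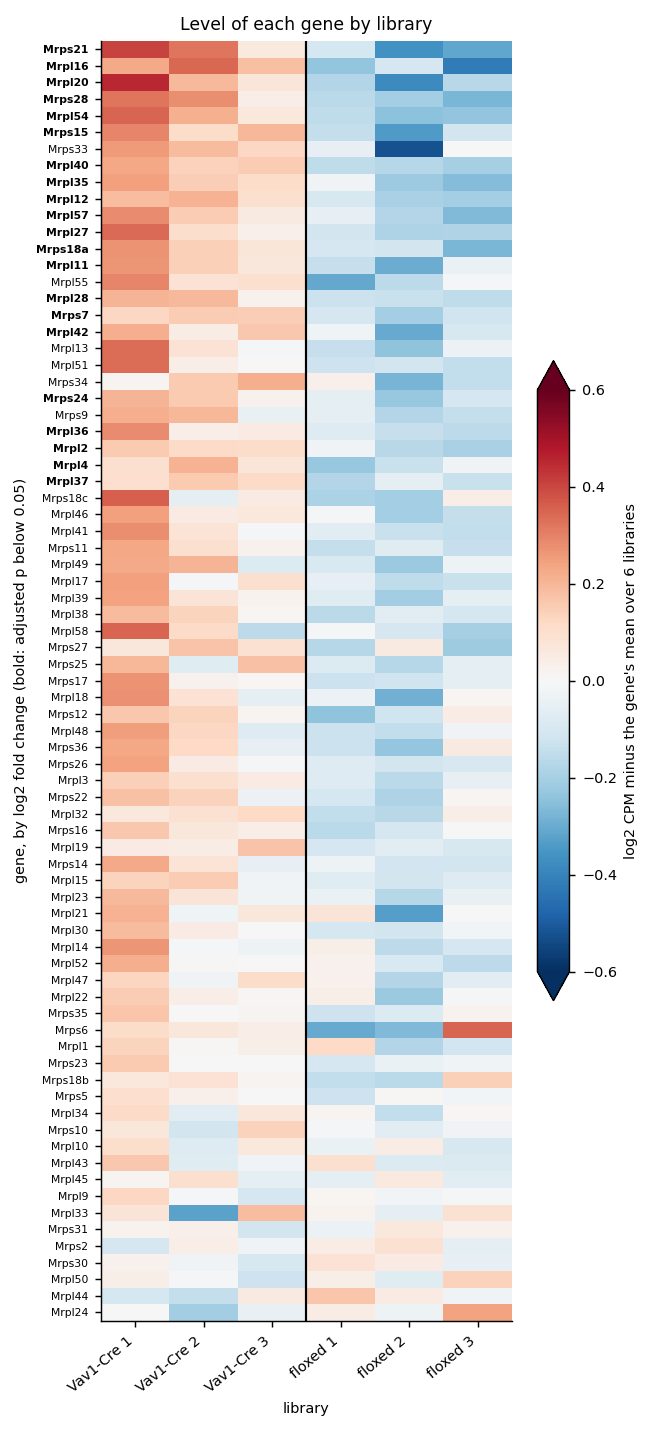
Level of each of the 77 tested members (rows, sorted by log2 fold change) in each library (columns, Vav1-Cre left of the black line and floxed right of it), as log2 CPM minus the gene's mean over the 6 libraries. Bold names mark the 21 members called higher; Vav1-Cre 1 holds the highest value in 56 rows and floxed 2 the lowest in 37.

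**Figure D3:**
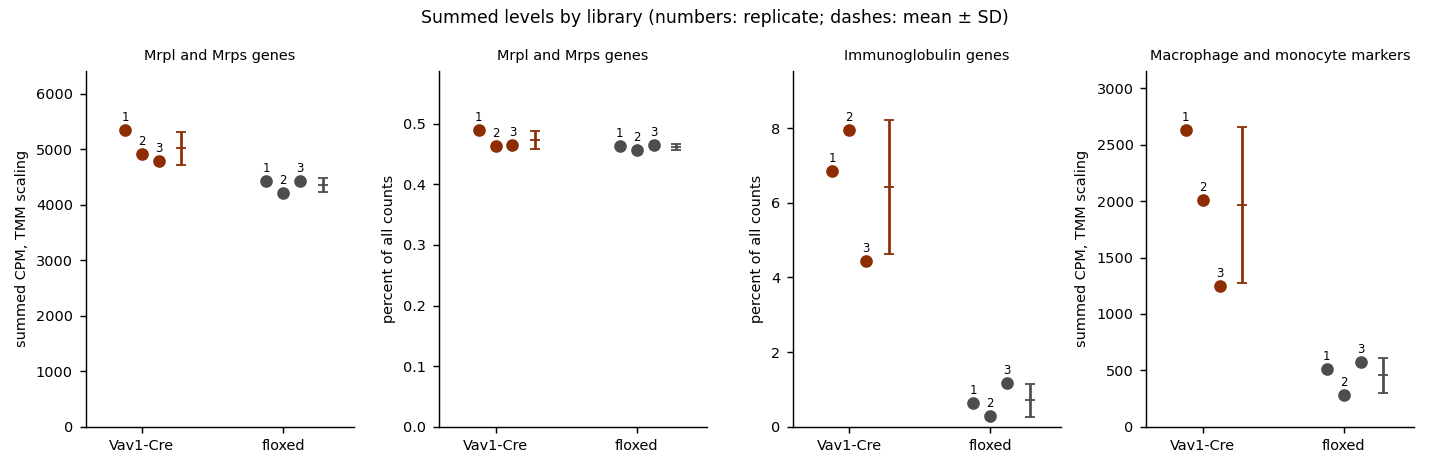
Summed levels in each library, on axes that start at 0, as CPM with TMM scaling or as percent of all counts; points are libraries with their replicate number, dashes the mean and bars the SD of 3 libraries. Summed CPM of the members separates the groups, their percent of all counts does not, and immunoglobulin genes and macrophage markers separate them by a wider margin.

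The 8 largest increases past the threshold fell on 5 large subunit and 3 small subunit genes. Mrps21, a small subunit protein with a bacterial relative, had 91.0, 85.7 and 71.5 CPM in Vav1-Cre libraries, against 63.8, 53.4 and 55.3 CPM in floxed libraries. Its lowest Vav1-Cre library lay above its highest floxed library, and the log2 fold change was 0.53 ± 0.10 (SE, adjusted p = 0.00458). Mrpl16, a protein close to the peptidyl transferase centre where peptide bonds are made, had 38.2, 41.5 and 37.0 CPM in Vav1-Cre libraries, against 27.7, 30.4 and 24.4 CPM in floxed libraries. The groups did not overlap, at a log2 fold change of 0.50 ± 0.10 (adjusted p = 0.00623). Mrpl20, needed for early large subunit assembly in bacteria, had 117, 97.7 and 89.9 CPM in Vav1-Cre libraries, against 75.6, 65.5 and 76.1 CPM in floxed libraries. Vav1-Cre 1 stood above the other libraries of its group, and the log2 fold change was 0.49 ± 0.10 (adjusted p = 0.00701). Mrps28, of the small subunit, had 69.8, 67.8 and 57.4 CPM in Vav1-Cre libraries, against 49.98, 48.6 and 46.2 CPM in floxed libraries. It was higher in all 3 Vav1-Cre libraries, by 0.43 ± 0.09 (adjusted p = 0.00661).

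Mrpl54, a protein found in mitochondrial but not in bacterial ribosomes, had 103, 93.4 and 84.2 CPM in Vav1-Cre libraries, against 72.5, 68.0 and 68.4 CPM in floxed libraries. All Vav1-Cre libraries were again the higher ones, with a log2 fold change of 0.42 ± 0.08 (adjusted p = 0.00467). Mrps15, which binds ribosomal RNA of the small subunit, had 99.7, 87.8 and 93.4 CPM in Vav1-Cre libraries, against 73.7, 64.3 and 75.4 CPM in floxed libraries. Its log2 fold change was 0.40 ± 0.08 (adjusted p = 0.00661), and the groups did not overlap. Mrpl40, whose human counterpart lies in the chromosome region deleted in DiGeorge syndrome, had 60.3, 56.5 and 57.1 CPM in Vav1-Cre libraries, against 46.2, 45.6 and 44.7 CPM in floxed libraries. Both groups were tight and apart, at 0.35 ± 0.08 (adjusted p = 0.00865). Mrpl35, of the large subunit, had 50.9, 47.5 and 46.3 CPM in Vav1-Cre libraries, against 42.2, 36.9 and 35.8 CPM in floxed libraries, a log2 fold change of 0.33 ± 0.09 (adjusted p = 0.0258). With each library left out in turn, 7 members passed the threshold in all 6 fits, namely Mrps21, Mrpl16, Mrpl20, Mrps28, Mrpl54, Mrpl40 and Mrpl12. Mrps15 passed in 5 of them and had an adjusted p of 0.0503 without floxed 2, while Mrpl42 passed in none and the other 12 called members in 1 to 3.

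Mrpl12 forms the flexible stalk that recruits translation factors, and its human protein also binds mitochondrial RNA polymerase. It had 100.3, 102 and 94.3 CPM in Vav1-Cre libraries, against 82.4, 77.0 and 76.4 CPM in floxed libraries, with no overlap and a log2 fold change of 0.33 ± 0.07 (adjusted p = 0.00783). Mrpl11, which forms the base of that stalk, was higher by 0.32 ± 0.09 (adjusted p = 0.0285). To complete the count, the other called members were Mrpl57 (log2 fold change 0.33), Mrpl27 (0.32), Mrps18a (0.32), Mrpl28 (0.28), Mrps7 (0.28), Mrpl42 (0.28), Mrps24 (0.26), Mrpl36 (0.26), Mrpl2 (0.25), Mrpl4 (0.25) and Mrpl37 (0.25). Mrpl27 reaches toward the peptidyl transferase centre and Mrpl4 lines the exit tunnel of the nascent chain. At the threshold, Mrpl36 lay just inside with 90.2, 76.3 and 76.8 CPM in Vav1-Cre libraries, against 70.2, 67.3 and 66.4 CPM in floxed libraries and a log2 fold change of 0.26 ± 0.08 (adjusted p = 0.0492). Mrpl55 lay just outside with 40.03, 34.7 and 34.9 CPM in Vav1-Cre libraries, against 26.4, 29.3 and 32.5 CPM in floxed libraries and the larger log2 fold change of 0.32 ± 0.11 (adjusted p = 0.0549). Both members had all Vav1-Cre libraries above all floxed libraries.

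Members whose numbers or names mislead were looked at one by one. Mrps18a, named for the small subunit but seated in the large one, had 64.3, 58.9 and 56.1 CPM in Vav1-Cre libraries, against 49.8, 49.5 and 44.2 CPM in floxed libraries. The groups did not overlap, at a log2 fold change of 0.32 ± 0.09 (adjusted p = 0.0233). Its paralogues did not pass. Mrps18b had 24.7, 25.1 and 23.9 CPM in Vav1-Cre libraries, against 21.3, 21.2 and 26.2 CPM in floxed libraries, a log2 fold change of 0.10 ± 0.11 (adjusted p = 0.567). Mrps18c had 41.3, 31.0 and 33.3 CPM in Vav1-Cre libraries, against 28.2, 27.98 and 33.2 CPM in floxed libraries, a log2 fold change of 0.24 ± 0.12 (adjusted p = 0.183). In both, one floxed library lay within or above the Vav1-Cre range. Mrps30, also part of the large subunit in spite of its name, had 38.5, 37.4 and 35.5 CPM in Vav1-Cre libraries, against 40.2, 39.2 and 36.7 CPM in floxed libraries, which overlap (log2 fold change −0.06 ± 0.09, adjusted p = 0.677).

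Mrps36, now assigned to the oxoglutarate dehydrogenase complex of the citric acid cycle rather than to the ribosome, had 37.3, 34.6 and 30.8 CPM in Vav1-Cre libraries, against 29.1, 27.1 and 32.996 CPM in floxed libraries. Its groups overlapped, at 0.20 ± 0.11 (adjusted p = 0.217). Mrpl58, a peptidyl-tRNA hydrolase that frees stalled ribosomes and sits in the large subunit, had 60.6, 51.5 and 42.7 CPM in Vav1-Cre libraries, against 47.3, 44.4 and 41.5 CPM in floxed libraries. Vav1-Cre 3 lay among the floxed libraries, and the log2 fold change was 0.22 ± 0.12 (adjusted p = 0.230). Mrps12, a protein of the decoding centre, had 70.9, 69.6 and 64.1 CPM in Vav1-Cre libraries, against 53.6, 58.4 and 65.3 CPM in floxed libraries. One floxed library lay above the lowest Vav1-Cre library, at 0.21 ± 0.09 (adjusted p = 0.126).

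The 7 members with a log2 fold change below 0 were Mrpl24, Mrpl44, Mrpl50, Mrps30, Mrps2, Mrps31 and Mrpl33, and none passed the test. Mrpl24, a large subunit protein with a bacterial relative, had 123, 107 and 119.5 CPM in Vav1-Cre libraries, against 127, 121 and 146 CPM in floxed libraries. The groups overlapped, at −0.17 ± 0.09 (adjusted p = 0.193). Mrpl44, a mitochondria-specific protein with a ribonuclease III-like fold, had 40.4, 39.3 and 45.0 CPM in Vav1-Cre libraries, against 48.8, 44.9 and 42.8 CPM in floxed libraries, at −0.13 ± 0.09 (adjusted p = 0.353). Both were named after their values were seen. Of the exonic bases of Mrpl24, 594 of 2255 are shared with Rrnad1 on the other strand, and no source used here says whether counting used strand. Mrpl53, the member that failed the filter, had 0 counts in all 6 libraries. In GENCODE M21, 695 of its 790 exonic bases are also exonic in the protein-coding gene model Gm42688 on the same strand, which held 211 counts over the 6 libraries. A count of 0 therefore does not show that its RNA was absent.

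The large and small subunits had close medians. Of 48 tested large subunit members 15 were called higher, with a median log2 fold change of 0.22, and of 29 small subunit members 6, with a median of 0.21. The large subunit sum was 3587, 3269 and 3197 CPM in Vav1-Cre libraries, against 2994, 2819 and 2963 CPM in floxed libraries. The small subunit sum was 1764, 1652 and 1592 CPM in Vav1-Cre libraries, against 1442, 1391 and 1466 CPM in floxed libraries. Within each library the ratio of large to small subunit counts was 2.03, 1.98 and 2.01 in Vav1-Cre libraries, against 2.08, 2.03 and 2.02 in floxed libraries, and these ranges overlap. The difference between the subunits' median deviations ran from −0.0018 to 0.031 in Vav1-Cre libraries and from −0.037 to 0.045 in floxed libraries. Placing Mrps18a and Mrps30 in the large subunit and leaving out Mrps36 gave 16 of 50 and 5 of 26, with medians of 0.22 and 0.21.

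A grouping by descent, made after the values were seen, split the members by whether a bacterial ribosome has a relative. Of 46 tested members grouped as having a bacterial relative 16 were called higher, and of the other 31 tested members 5. The medians were 0.21 in both. All 6 called Mrps genes are among the 18 grouped with a bacterial relative, and 0 of the other 11 Mrps genes passed, although their median was 0.19. Those 11, which include Mrps30 and Mrps36, had a median length of 3291 bases and a median level of 13.4 FPKM. The 18 had 2130.5 bases and 18.1 FPKM, so the groups were not matched for length or level.

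Levels per length, as the deposited FPKM (a count divided by exon length and by a scaled library size), spread over a wide range. Mrpl34 was the highest at 179 ± 11.7 FPKM in Vav1-Cre libraries and 169 ± 11.8 FPKM in floxed libraries (SD, n = 3 each), with a log2 fold change of 0.08 ± 0.08 (adjusted p = 0.538). Mrpl54 followed at 113 ± 10.9 FPKM in Vav1-Cre and 83.7 ± 3.17 FPKM in floxed, and Mrps21 at 112 ± 13.4 FPKM in Vav1-Cre and 77.1 ± 7.57 FPKM in floxed. Mrpl52 had 82.5 ± 7.08 FPKM in Vav1-Cre and 73.9 ± 4.82 FPKM in floxed, and Mrps28 82.8 ± 8.34 FPKM in Vav1-Cre and 61.1 ± 2.27 FPKM in floxed. In Vav1-Cre libraries Mrpl54 and Mrps21 differed by less than their SDs, as did Mrpl52 and Mrps28. At the low end stood Mrpl1 (5.05 ± 0.228 FPKM in Vav1-Cre and 4.65 ± 0.519 FPKM in floxed) and Mrpl47 (5.38 ± 0.303 FPKM in Vav1-Cre and 4.84 ± 0.352 FPKM in floxed). Mrps30, Mrps25 and Mrps35 came next, with 5.55, 6.11 and 6.03 FPKM in Vav1-Cre and 5.75, 5.25 and 5.50 FPKM in floxed. None of these 5 lowest members was called, and of the 5 highest Mrpl54, Mrps21 and Mrps28 were. The length behind FPKM equalled all merged exon bases of GENCODE M21 within 0.01% for 72 of the 77 tested members and was shorter for 5, Mrpl16 (0.354 of those bases), Mrpl43 (0.798), Mrpl11 (0.893), Mrpl49 (0.918) and Mrpl28 (0.923).

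Gene length moved with the difference between genotypes. Among all tested genes the median log2 fold change was 0.20 in the shortest of 10 equal-sized bins by length and −0.14 in the longest. Members are short, with a median length of 2255 bases, against 3856 bases for all tested genes. Of the 31 tested members under 2000 bases, 13 were called higher with a median of 0.24, where all genes of that length had a median of 0.13 and 13.8% called higher. Of the 46 members of 2000 bases or more, 8 were called higher with a median of 0.19, where all genes of that length had a median of −0.05 and 8.97% called higher. The members' median stood above that of genes of like length in both classes. With offsets that level gene length within each library, 24 members were called higher and the median was 0.19, beside 0.01 for all genes. Then 8 of the 31 shorter members (median 0.15) and 16 of the 46 longer ones (median 0.21) were called. Of the 21 members called without offsets, 15 were called with them. Across the 77 members log2 length and log2 fold change had a Pearson correlation of −0.27, and across all tested genes of −0.26, given as a description only. For log2 mean FPKM and log2 fold change it was 0.32 across the members and 0.15 across all tested genes. Members had a median of 24.1 FPKM, against 4.83 FPKM for all tested genes. The comparisons of members with all genes, by length or not, were not matched for level.

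**Figure D4:**
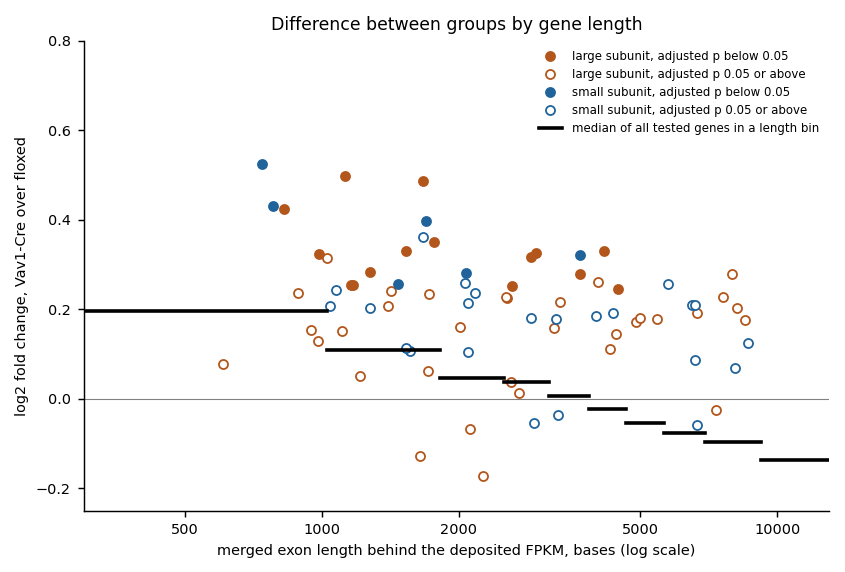
Log2 fold change, Vav1-Cre over floxed, of each of the 77 tested members against its exon length in bases (log scale), filled where adjusted p was under 0.05; black bars give the median of all tested genes in each of 10 equal-sized bins by length. The bars step down from 0.20 to −0.14, and the members' median lies above the bar in each of the 9 bins that hold members.

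Lists of other genes of mitochondrial translation, apart from further ribosomal subunits, had medians near that of all tested genes. These lists, for assembly, factors, synthetases, transcription and regulators, were not matched to the members for level or length. Their median levels were 5.10 to 8.14 FPKM, against 24.1 FPKM for members. Their median lengths were 3008.5 to 6052.5 bases, against 2255 bases for members. The 5 subunits that carry other symbols were split. Chchd1, of the small subunit, had 87.2, 69.4 and 77.1 CPM in Vav1-Cre libraries, against 62.9, 59.9 and 63.3 CPM in floxed libraries (log2 fold change 0.33 ± 0.09, adjusted p = 0.0233), and Gadd45gip1, of the large subunit, had 72.3, 71.2 and 62.5 CPM in Vav1-Cre libraries, against 54.1, 53.0 and 57.8 CPM in floxed libraries (0.32 ± 0.08, adjusted p = 0.0199). Neither overlapped between groups, but neither passed without Vav1-Cre 1, without floxed 1 or without floxed 2, Chchd1 also not without floxed 3 and Gadd45gip1 also not without Vav1-Cre 2. Aurkaip1, a small subunit protein, differed by 0.18 ± 0.07 (adjusted p = 0.0946), and Dap3, a GTP-binding small subunit protein, and Ptcd3, a small subunit protein with RNA-binding repeats, had −0.04 ± 0.07 and 0.0096 ± 0.09. None of those 3 passed.

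Among 26 genes for assembly of the mitochondrial ribosome and modification of its RNA, 0 were called in either direction and the median was −0.01. The smallest p-values belonged to the helicase Dhx30 (−0.24 ± 0.09, adjusted p = 0.0675), the RNA methyltransferase Nsun4 (−0.31 ± 0.13, adjusted p = 0.110) and the RNA methyltransferase Mrm1 (−0.18 ± 0.09, adjusted p = 0.184). At an unadjusted p under 0.05 the list held 2 genes, both lower. Of 17 translation factors and coupled proteins 16 were tested, and 0 were called, with a median of −0.05 and 4 at an unadjusted p under 0.05. Without Vav1-Cre 3, 1 of them, Guf1, was called lower, as was Pprc1 among the regulators of mitochondrial biogenesis; both are named after their values were seen. Tufm, the elongation factor that delivers transfer RNAs, had 136, 137 and 133 CPM in Vav1-Cre libraries, against 116, 120.3 and 117 CPM in floxed libraries, which do not overlap, at 0.20 ± 0.07 (adjusted p = 0.0563). Its exchange factor Tsfm had 0.27 ± 0.10 (adjusted p = 0.0790), and the recycling factor Mrrf −0.27 ± 0.11 (adjusted p = 0.104).

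None of the 17 mitochondrial aminoacyl-tRNA synthetases, the enzymes that load transfer RNAs, was called (median −0.01, with 4 at an unadjusted p under 0.05). Pars2 had −0.48 ± 0.18 (adjusted p = 0.0786), Yars2 0.25 ± 0.09 (adjusted p = 0.0825) and Nars2 −0.43 ± 0.18 (adjusted p = 0.109). None of 12 genes for mitochondrial transcription and RNA processing was called either (median −0.08, with 1 at an unadjusted p under 0.05). The smallest p-values there were those of Fastkd5 (−0.60 ± 0.27, adjusted p = 0.137), Tfb2m (−0.25 ± 0.13, adjusted p = 0.202) and Tefm (−0.43 ± 0.22, adjusted p = 0.204). DESeq2 also called 0 genes in these lists for assembly, factors, synthetases and transcription.

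Of 10 regulators of mitochondrial biogenesis, 2 were called lower and 0 higher. Myc, a transcription factor known to activate ribosome and mitochondrial genes, had 82.7, 83.3 and 108 CPM in Vav1-Cre libraries, against 157, 157 and 144 CPM in floxed libraries, a log2 fold change of −0.74 ± 0.10 (adjusted p = 8.55e-04). Its relative Mycn had 17.4, 17.7 and 23.2 CPM in Vav1-Cre libraries, against 28.6, 35.1 and 32.996 CPM in floxed libraries, at −0.73 ± 0.13 (adjusted p = 0.00293). Both moved opposite to the members' median, and any part of Myc or Mycn in the members' levels was not tested. Pprc1 had −0.30 ± 0.12 (adjusted p = 0.0938). Nrf1, Gabpa and Yy1, factors with known sites in promoters of mitochondrial genes, had log2 fold changes of 0.16, −0.07 and −0.07 and did not pass. For comparison, 4 of 78 tested cytosolic ribosomal protein genes (Rpl or Rps with a digit) were called higher, with a median of 0.10. The 13 protein genes of the mitochondrial genome gave 0 calls, 0 at an unadjusted p under 0.05, and a median of −0.05. All genes of the mitochondrial genome took 1.64%, 1.65% and 1.74% of counts in Vav1-Cre libraries, against 1.95%, 1.82% and 2.24% in floxed libraries.

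**Figure D5:**
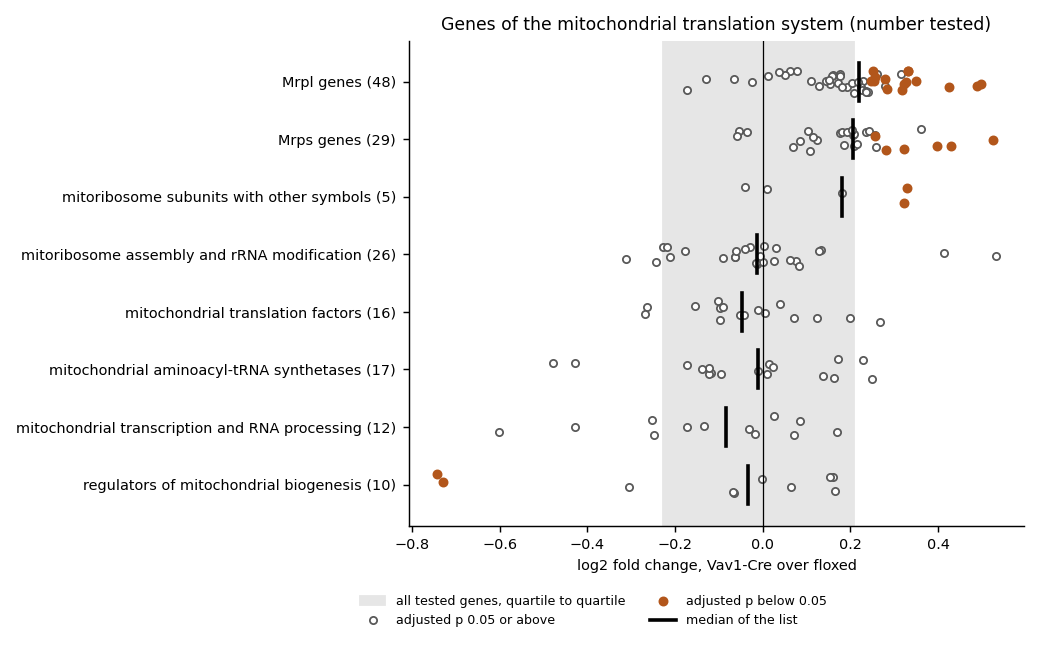
Log2 fold change, Vav1-Cre over floxed, of each tested gene (points) of the Mrpl and Mrps genes and of 6 lists of the mitochondrial translation system, with the number tested in brackets; filled points passed an adjusted p of 0.05, black bars are list medians, and the grey band spans the quartiles of all tested genes. Medians of Mrpl and Mrps genes lie at 0.22 and 0.21, those of the lists for assembly, factors, synthetases, transcription and regulators between −0.08 and −0.01.

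The members are scattered over 17 chromosomes, and many start beside another gene. A protein-coding gene began within 1 kb on the other strand for 33 of the 77 tested members (42.9%), and for 16.5% of the 12474 tested protein-coding genes. In the 31 such pairs with both genes tested, the neighbours had a median log2 fold change of 0.03, with 1 called higher and 2 lower. The called neighbours were Psma2, a proteasome subunit gene beside Mrpl32 (0.30, adjusted p = 0.0233), Pnpla7 beside Mrpl41 (−0.36, adjusted p = 0.0281) and Zfp189 beside Mrpl50 (−0.76, adjusted p = 0.0333). None of these members was itself called. Among the 8 pairs whose member was called, 0 neighbours were. Apba3, which starts 26 bases from Mrpl54, had a log2 fold change of 0.07, and Hira, 175 bases from Mrpl40, of 0.08. Mrps11 and Mrpl46 are neighbours of each other, at 0.24 each. Exonic bases are shared with a protein-coding gene by 23 of the 78 members. For 12 of them the bases shared with a single such gene are at least 10% of their own. The shares are highest for Mrps25 (4590 of 6576 bases with Nr2c2) and Mrps34 (1309 of 2064 bases with Mapk8ip3), apart from Mrpl53, and neither was called. Of the called members Mrps24 is the one among those 12, with 226 of 1466 bases in common with Urgcp. Mrps7, also called, is not among them but has 2 such genes, sharing 127 of its 2072 bases with Gga3 and 119 with Mif4gd.

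Promoters of 69 members, 75 in all, were found in the RefSeq table of GRCm38.p6, from 250 bases before to 50 bases after each start. Mrpl4, Mrpl13, Mrpl15, Mrpl19, Mrpl38, Mrpl54, Mrps28, Mrps34 and Mrps35 were not matched. Exact matches on both strands were sought for GCGCATGC (called NRF1-type here), CCGGAAGT (ETS-type, the core bound by Gabpa) and AANATGGCG (YY1-type). The NRF1-type letters occur in 8 of 75 member promoters (10.7%), beside 5.01% of promoters of tested genes and 2.71% of all promoters in the table. The ETS-type letters occur in 12 (16.0%), beside 7.82% and 3.89%, and the YY1-type letters in 11 (14.7%), beside 4.83% and 2.38%. At least 1 of the 3 occurs in 28 (37.3%), beside 16.3% and 8.37%. Matches to different motifs did not overlap, but NRF1-type matches on opposite strands overlap each other in some promoters.

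Calls were then counted by promoter class among members only, with no test. Calls among all tested genes with the same letters were not counted, and 10.1% of all tested genes were called higher. With YY1-type letters, 7 of 11 tested members were called, at a median log2 fold change of 0.26, and without them 11 of 57, at 0.19. With NRF1-type letters 0 of 8 were called (median 0.12), and with ETS-type letters 1 of 12 (median 0.20). Of the called members with YY1-type letters, Mrpl35 passed in 2 of the 6 leave-one-out fits and Mrpl42 in 0. Mrpl27, Mrps18a, Mrps24, Mrpl36 and Mrpl37 each passed in 1. Among members that passed in all 6, Mrps21, Mrpl16, Mrpl20, Mrpl40 and Mrpl12 held none of the 3 motifs. Mrpl54 and Mrps28, which also passed in all 6, had no matched promoter. In 9 of the 11 YY1-type promoters the match lies after the start and on the gene's own strand. The letters contain ATG, and whether a match falls on the start codon of translation was not examined. The windows of 30 bases around these 11 matches are shown because, of the 3 motifs, this one has the highest share of called members. They are written 5′ to 3′ on the strand of the gene, in GRCm38.p6, with the match in capitals. First come the 7 members called higher.
Mrpl35, chr6:71823742-71823771, minus strand: ggcaggctgcAAGATGGCGgcttccatctt
Mrpl27, chr11:94653789-94653818, plus strand: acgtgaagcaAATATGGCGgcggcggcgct
Mrps18a, chr17:46111005-46111034, plus strand: ggtgcgttccAAGATGGCGgccctcagggc
Mrpl42, chr10:95501903-95501932, minus strand: agattgaagcAAGATGGCGagcgcgcggtg
Mrps24, chr11:5707652-5707681, minus strand: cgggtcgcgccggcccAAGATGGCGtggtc
Mrpl36, chr13:73330968-73330997, plus strand: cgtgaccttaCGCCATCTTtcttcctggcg
Mrpl37, chr4:107066821-107066850, minus strand: tgcacgggcaAAGATGGCGgcgtccaggta
The 4 members with such letters that were not called follow, and of these Mrps30 had a log2 fold change of −0.06.
Mrps11, chr7:78783013-78783042, plus strand: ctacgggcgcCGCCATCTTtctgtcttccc
Mrpl58, chr11:115403762-115403791, plus strand: ctgggaggtgAACATGGCGaccgcctgggg
Mrps27, chr13:99344790-99344819, plus strand: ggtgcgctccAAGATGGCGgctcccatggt
Mrps30, chr13:118387218-118387247, minus strand: gcggcgggcgAAAATGGCGgcggccaggta
In Mrpl36 and Mrps11 the match is on the other strand, so that the capitals show its reverse complement.

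To set one of these beside the member with the largest increase, the 250 bases before the start are given for Mrpl27, with its ETS-type match in capitals, and for Mrps21, in whose promoter none of the 3 motifs was found.
Mrpl27, chr11:94653541-94653790, plus strand: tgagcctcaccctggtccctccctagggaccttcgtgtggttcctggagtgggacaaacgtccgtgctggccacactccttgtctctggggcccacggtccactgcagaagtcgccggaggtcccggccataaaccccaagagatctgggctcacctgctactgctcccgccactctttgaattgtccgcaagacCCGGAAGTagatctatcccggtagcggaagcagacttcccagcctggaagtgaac
Mrps21, chr3:95871515-95871764, minus strand: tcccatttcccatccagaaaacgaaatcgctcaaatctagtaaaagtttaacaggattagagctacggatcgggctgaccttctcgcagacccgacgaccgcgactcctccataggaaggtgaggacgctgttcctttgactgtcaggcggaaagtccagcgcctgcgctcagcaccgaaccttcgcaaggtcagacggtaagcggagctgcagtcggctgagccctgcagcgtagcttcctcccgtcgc
Mrps21 had a log2 fold change of 0.53 and Mrpl27 of 0.32. Each match is a description of letters and not a site shown to be bound.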

How the data were processed

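RNA of 6 LSK libraries was analysed. The authors deposited counts of reads as whole numbers, and FPKM, for each Ensembl gene and library, per the file headers. The submitters' processing notes name Bowtie and mm8; no source used here names the counter or its use of strand. Of the 54532 identifiers 54409 were in GENCODE M21 (GRCm38), and the lengths implied by FPKM matched its merged exons within 0.01% for 94.4% to 94.6% of genes with more than 200 counts in a library. Between libraries, the deposited FPKM values were already scaled by median-ratio size factors.

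The main test was edgeR's quasi-likelihood test (version 4.0.16, R 4.3.3) on the deposited counts, with TMM scaling, the default filter (minimum count 10), the robust option, no covariate, and Benjamini-Hochberg adjustment over all 14608 tested genes at a threshold of 0.05. The fit was tested on simulated data whose changes were larger than that of any member, so changes of the members' size were not tried. DESeq2 1.42.0, limma 3.58.1, other scalings, filters, length offsets and leaving out each library were alternatives. Replicate numbers follow accession order and pair nothing. The labels name no animals, and p-values reflect only the spread between these samples.

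Members, lists and motifs were chosen with earlier results of these data known. Named members were the 8 largest increases and decreases past the threshold, the 4 smallest p, the 5 highest and 5 lowest FPKM, those nearest the threshold, any that failed the filter, and 8 with a listed role. Of each other list, the 3 genes of smallest p were named.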

Additional observations from a re-analysis of the deposited data

How the results depend on the processing

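The number of members called higher, 21 with the settings used, was 20 with DESeq2, 21 with RLE size factors, 20 with limma-voom, 20 with no count filter, 19 at a mean count of at least 50, 16 without the robust option, 23 without immunoglobulin genes and 24 with length offsets. It fell to 13 with upper-quartile scaling, to 12 with limma on log2 FPKM plus 1 or plus 0.1, to 2 on log2 FPKM plus 1 without a filter, to 6 under library totals and to 0 with the immunoglobulin share as covariate. Leaving out 1 library gave 7 to 31. The number called lower was 0 under each of these except library totals, which gave 2. Scaling by library totals in edgeR was chosen after seeing the data. The members' median log2 fold change lay between 0.16 and 0.25, but was 0.037 under library totals, where the ratio of summed levels was 1.02, and 0.054 with the covariate. The large minus small subunit difference moved beyond its spread with the covariate only, to 0.057. Log2 fold changes of 18 of the 77 tested members turned sign under library totals, of 22 with the covariate, of 6 with length offsets and of 0 to 2 under each other alternative. Among 36 members (those called, those of the naming rule, Mrpl24 and Mrpl44) they did so under library totals for Mrpl1 (−0.057), Mrpl34 (−0.091), Mrpl47 (−0.024), Mrpl52 (−0.020), Mrps18b (−0.065) and Mrps35 (−0.047). They did so with length offsets for Mrpl34 (−0.099) and Mrps30 (0.026). With the covariate they did so for Mrpl44 (0.21), Mrpl58 (−0.28), Mrps12 (−0.072), Mrps18b (−0.13), Mrps24 (−0.020) and Mrps36 (−0.23). Of all members that turned sign under any of these, only Mrps24 was called before. The causes were not tested. The precision of single genes is limited to the standard errors given, which rest on 3 libraries per group. No paired analysis was possible because the labels of the floxed libraries share no replicate numbers with those of the Vav1-Cre libraries.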
